A study of Mus musculus with 9 samples.

Results

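The major urinary protein genes were followed in the irradiated mouse submandibular salivary gland. The 5 genes described here are Mup3, Mup4, Mup5, Mup6 and Mup20, out of 54532 gene identifiers in the count table. They were chosen by name, with the rise of Mup5 across these same libraries already known, so they were selected on the counts compared here and their levels are a description without a test. The table holds 49 genes and pseudogenes with a Mup symbol, and the other 44 are given beside the 5. The glands came from wild-type mice that had all received 10 Gy of radiation, and 3 samples each were collected at 30, 60 and 90 days after it. Glands without irradiation were not analysed here, so every comparison is between irradiated glands, and time since irradiation and age cannot be told apart. Strain, sex and age are not in the labels, and nothing says whether the 3 samples of a time point are separate animals, so a p-value below measures the spread between samples, which may be technical.

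Major urinary proteins are small secreted lipocalins, barrel-shaped proteins that hold volatile ligands in an inner pocket. The liver makes most of them and they pass into urine, where they release pheromones slowly and act as scent signals themselves. In liver their genes respond to growth hormone acting through its receptor and the transcription factor STAT5, and to androgen, thyroid hormone and glucocorticoid. Mup20 encodes darcin, a male scent protein that attracts females. Mup4 and Mup5 are known from exocrine glands, such as the lacrimal and salivary glands, more than from liver.

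The members lie in a cluster of near-copies on chromosome 4 of GRCm38, between positions 59956804 and 62150863, so the sequences decide whether their reads can be told apart. The stretch of 75 coding bases in which Mup5 differs most from the other members lies in exon 1, which encodes the signal for secretion and the start of the mature protein. It is shown 5′ to 3′ on the coding strand, with capitals at bases that differ from Mup5.
Mup5: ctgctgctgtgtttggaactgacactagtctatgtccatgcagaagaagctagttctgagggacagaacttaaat
Mup4: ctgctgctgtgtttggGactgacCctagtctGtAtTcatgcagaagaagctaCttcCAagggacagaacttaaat
Mup20: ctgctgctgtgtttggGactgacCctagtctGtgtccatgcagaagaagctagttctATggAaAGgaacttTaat
Mup6: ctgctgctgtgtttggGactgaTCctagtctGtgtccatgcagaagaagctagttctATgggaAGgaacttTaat
Mup3: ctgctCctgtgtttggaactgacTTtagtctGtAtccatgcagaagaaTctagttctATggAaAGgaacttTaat
The Mup5 copy is at chr4:61835036-61835110 on the minus strand, and the copies of Mup4, Mup20 and Mup3 are at chr4:59960519-59960593, chr4:62053960-62054034 and chr4:62087133-62087207 on the same strand. The Mup6 copy is at chr4:60003558-60003632 on the plus strand. Mup4 differs from Mup5 at 8 of the 75 bases, Mup20 and Mup6 at 9 each and Mup3 at 12.

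The stretch in which the members are most alike lies in exon 4, and it shows where a short read could come from more than 1 of them. Capitals again mark bases that differ from Mup5.
Mup5: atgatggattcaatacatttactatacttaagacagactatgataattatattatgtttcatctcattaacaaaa
Mup4: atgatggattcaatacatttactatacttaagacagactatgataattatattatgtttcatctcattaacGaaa
Mup20: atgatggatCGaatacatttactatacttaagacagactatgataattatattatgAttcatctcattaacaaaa
Mup6: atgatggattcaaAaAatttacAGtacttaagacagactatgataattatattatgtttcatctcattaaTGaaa
Mup3: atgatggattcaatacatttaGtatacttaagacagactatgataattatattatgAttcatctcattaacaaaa
In Mup5 this stretch is at chr4:61833031-61833105. Mup4 differs from it at 1 base, Mup3 at 2, Mup20 at 3 and Mup6 at 6. Over the whole coding sequence Mup5 was 93.1% identical to Mup4, 91.7% to Mup20, 90.5% to Mup6 and 86.9% to Mup3. Its identity to the 21 other protein-coding Mup genes ran from 86.7% to 93.1%.

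The remaining liver-type genes are far more alike. Among 16 protein-coding Mup genes outside the 5 members and Mup21, pairs shared between 97.0% and 100% of their aligned coding bases, with a median of 99.1%. The longest run that Mup5 shares exactly with any other Mup gene is 110 bases, present in 15 of those 16 genes. It spans exons 5 to 7, and its coding part is 2 pieces, shown because reads inside this run cannot be assigned to 1 gene.
Exon 5: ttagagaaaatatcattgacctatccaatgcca
Exon 6: atcgctgcctccaggcccgagaa
These pieces are at chr4:61832552-61832584 and chr4:61832365-61832387 in Mup5, on the minus strand.

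Exact stretches give a measure of what a read can resolve, since the read length is not given in the sources used here. Of the 851 stretches of 75 bases in the Mup5 transcript, 39 (4.58%) also occur in a transcript of another gene. The share was 17.1% for stretches of 50 bases and 1.33% for 100 bases. For 75 bases it was 0% for Mup6, 0.354% for Mup4, 5.44% for Mup3 and 43.6% for Mup20. The Mup20 stretches are shared with a single other gene. For the 16 liver-type genes the share ran from 57.8% to 100%, with a median of 79.8%, and in 3 of them no stretch of 75 bases was unique. Reads of Mup3, Mup4, Mup5 and Mup6 can therefore mostly be assigned, whereas a read of a liver-type gene can mostly not be, and how the counting treated such reads is not given in the sources used here.

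Nearly all counts given to Mup genes in these glands were of Mup5. It held 256786 of the 256810 counts of all 49 Mup genes in the 9 libraries, a share of 99.99% (95% exact Clopper-Pearson interval 99.986% to 99.994%, which covers counting error only). In the 30-day libraries all 11686 Mup counts were of Mup5, which allows the other Mup genes together a share of up to 0.0257%. These shares are of counted reads: reads of the near-identical liver-type genes may not have been counted, and the shares and their limits do not cover such reads. The other genes held 13 counts at 60 days and 11 at 90 days. A total of 7 Mup genes had any count, and 42 had 0 in all 9 libraries.

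**Figure D1:**
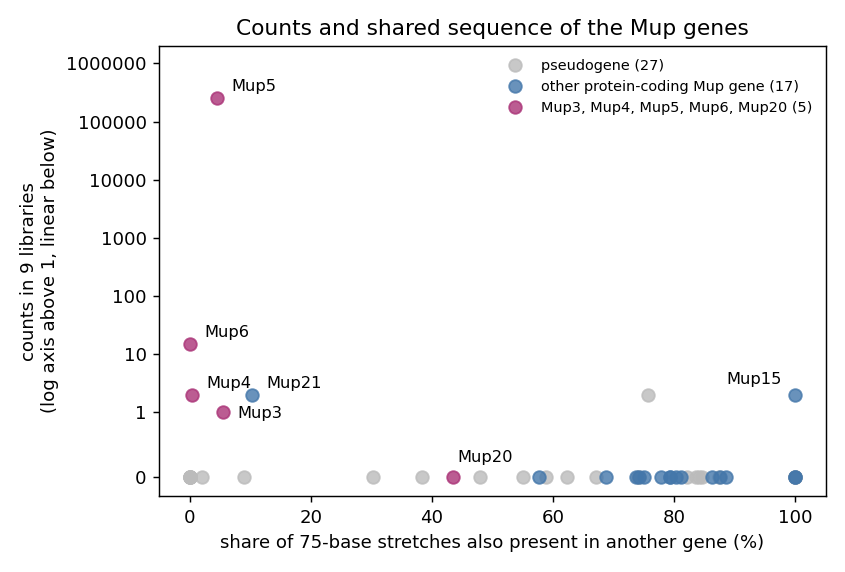
Each point is a Mup gene or pseudogene; the x axis is the percentage of its 75-base stretches that also occur in another gene, and the y axis its counts summed over 9 libraries (log axis above 1, linear below). Mup5 stands at 256786 counts, and Mup6, the next gene, at 15.

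Mup6 had 15 counts in all. It had 0 counts in each 30-day library, 5, 4 and 0 counts in 60-day samples 1, 2 and 3, and 0, 5 and 1 counts in the 90-day samples. Mup4, the closest relative of Mup5 among the members, had 2 counts, both in 90-day sample 1. Mup3 had 1 count, in 90-day sample 3. Mup20, the darcin gene, had 0 counts in every library. A count of 0 allows up to 3 counts, which is between 0.101 and 0.213 CPM (counts scaled to a common library total, with the same scaling as the levels below) depending on the library. Outside the members, and named after their values were seen, Mup21 had 2 counts in 90-day sample 2, Mup15 had 2 in 60-day sample 2, and the pseudogene Mup-ps16 had 2 in 60-day sample 3. In GRCm38 Mup4 (ENSMUSG00000041333) is at 59956804 to 59960710, Mup20 (ENSMUSG00000078672) at 62050234 to 62054158 and Mup3 (ENSMUSG00000066154) at 62083476 to 62087342 on the minus strand of chromosome 4. Mup6 (ENSMUSG00000078689) is at 59964294 to 60007274 on the plus strand. Of the 5 members only Mup5 passed the filter on low counts, and no fold change is given for the others.

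Mup5 (ENSMUSG00000058523, chromosome 4, 61831319 to 61835233, minus strand in GRCm38) was low at 30 days, intermediate at 60 days and high at 90 days. No other annotated gene overlaps it. In samples 1, 2 and 3 the 30-day libraries had 262, 238 and 236 CPM (after scaling of the libraries by the trimmed mean of M-values, TMM). The 60-day libraries had 900.5, 918 and 1123 CPM. The 90-day libraries had 1956, 2927 and 1699 CPM. The 3 groups did not overlap: the highest 30-day sample lay below the lowest 60-day sample, and the highest 60-day sample below the lowest 90-day sample. Such an order, with no overlap and rising at both steps, was seen in 75 of 15224 genes (0.493%).

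Group means were 245 ± 14.5 CPM in the 30-day group, 980.4 ± 123 CPM in the 60-day group and 2194 ± 648 CPM in the 90-day group (SD, n = 3 each). The mean at 60 days was 3.997 times that at 30 days, and the mean at 90 days was 2.24 times that at 60 days and 8.94 times that at 30 days. On the log2 scale the differences for 60 over 30, 90 over 60 and 90 over 30 days were 2.00 ± 0.18, 1.16 ± 0.17 and 3.16 ± 0.18 (SE from the fit to all genes). No test result is given for Mup5, since these are the values for which it was chosen. Of all 15224 genes tested, 1.14%, 0.092% and 1.81% were called higher in these comparisons (adjusted p under 0.05 by edgeR). Another 0.427%, 0.164% and 1.77% were called lower. The 90-day samples differed most among themselves, and sample 2 was the highest. In these bulk samples more cells of a type and more RNA per cell cannot be told apart.

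**Figure D2:**
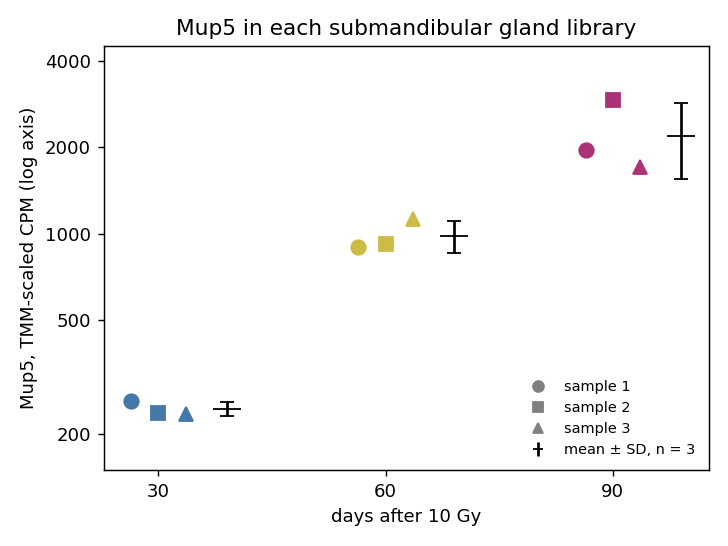
Points are the 9 libraries, with Mup5 in TMM-scaled CPM on a log axis against days after 10 Gy; the bar beside each group is the mean ± SD of 3 samples. The 30-day samples sit between 236 and 262 CPM, the 60-day samples between 900.5 and 1123 CPM, and the 90-day samples between 1699 and 2927 CPM.

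The counts of all Mup genes were also summed before the fit, so that the value does not depend on how reads were divided among them. The sum differed by 2.00 ± 0.18, 1.16 ± 0.17 and 3.16 ± 0.18 on the log2 scale in the same comparisons (SE), which are the values of Mup5 itself to 2 decimals. Because Mup5 held 99.99% of the counts in the sum, this match was bound to occur and is not a separate result. Reads that were left uncounted because they fit several places are not part of this sum.

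Mup5 was also an abundant transcript by level per length. In CPM of the unscaled library per kilobase of exon it measured 233, 252 and 260 in the 30-day samples, which placed it 42nd, 45th and 45th among all genes. At 60 days it measured 906, 885 and 1339 on this scale and was 27th, 29th and 21st. At 90 days it measured 2406, 3748 and 1793 and was 18th, 15th and 21st. Its share of all counts in a library went from between 0.0216% and 0.0241% at 30 days to between 0.166% and 0.347% at 90 days.

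Genes around Mup5 were counted as well. Inside the cluster lie 6 annotated genes without a Mup symbol, and all had 0 counts. Of the 10 protein-coding genes nearest to the cluster, 5 on each side, 9 could be tested. By edgeR's quasi-likelihood test 0 of 9 were called in any comparison. Of all genes, 1.56%, 0.256% and 3.57% were called for 60 against 30, 90 against 60 and 90 against 30 days. The tenth, Slc46a2, had 4 counts. The largest difference among them was for Zfp37, a zinc finger gene just beyond the cluster, at 0.55 ± 0.30 on the log2 scale for 90 against 60 days (SE; adjusted p = 0.543). Hsdl2 and Slc31a1 differed by -0.10 ± 0.13 and -0.14 ± 0.11 for 90 against 30 days (SE; adjusted p = 0.788 and 0.594).

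Among 14 genes of the hormone pathways that control Mup genes in liver, Ghr and Cish passed the test. The list covered the growth hormone and prolactin receptors, the JAK2 and STAT5 signal chain with its feedback genes and target, the repressors Bcl6, Cux2 and Zhx2, and the thyroid and glucocorticoid receptors. All 14 were tested. From 30 to 60 days 2 of 14 rose and 0 fell, beside 1.56% of all genes called in either direction. Between 60 and 90 days 0 of 14 were called, beside 0.256%, and between 30 and 90 days 1 rose and 0 fell, beside 3.57%. The list's median log2 difference was 0.00, -0.12 and -0.03 in these comparisons, and that of all genes 0.00, 0.00 and 0.01.

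The growth hormone receptor gene Ghr rose. Its level was 56.7, 52.7 and 52.0 CPM in the 30-day samples, 81.3, 92.6 and 75.8 CPM in the 60-day samples and 75.1, 71.5 and 84.1 CPM in the 90-day samples. All 60-day and 90-day samples lay above all 30-day samples, and the 60-day and 90-day groups overlapped. The difference was 0.63 ± 0.11 on the log2 scale for 60 against 30 days (SE; adjusted p = 0.00366) and 0.51 ± 0.11 for 90 against 30 days (SE; adjusted p = 0.00965). The later call was lost without 30-day sample 2 (adjusted p = 0.0524) and without 90-day sample 3 (adjusted p = 0.0678).

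Cish, a feedback inhibitor that STAT5 switches on, had 32.3, 26.2 and 25.3 CPM in the 30-day group, 37.6, 42.1 and 39.8 CPM in the 60-day group and 31.1, 32.4 and 31.3 CPM in the 90-day group. The 60-day group lay above both others without overlap. From 30 to 60 days Cish rose by 0.52 ± 0.11 (log2, SE; adjusted p = 0.0224), a call lost with library-size scaling (adjusted p = 0.113) and without 30-day sample 2, 30-day sample 3 or 60-day sample 2 (adjusted p = 0.124, 0.109 and 0.148). From 60 to 90 days its difference was -0.34 ± 0.11 (SE; adjusted p = 0.262).

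The other genes of the list were not called in the fit with the filter on low counts. Stat5a and Stat5b, the transcription factors that carry the growth hormone signal, differed by -0.03 ± 0.11 and -0.29 ± 0.12 for 90 against 30 days on the log2 scale (SE; adjusted p = 0.925 and 0.243). Prlr, the prolactin receptor gene and the most abundant of the list after Ghr, had 38.2 ± 5.62 CPM in the 30-day group, 47.6 ± 7.41 CPM in the 60-day group and 35.3 ± 4.48 CPM in the 90-day group (SD, n = 3 each). Its difference for 90 against 60 days was -0.43 ± 0.13 (log2, SE; adjusted p = 0.248), and it was called without the filter (adjusted p = 0.0214). Bcl6, a transcriptional repressor, differed by -0.65 ± 0.22 for 60 against 30 days (log2, SE; adjusted p = 0.244). It was called there without the filter (adjusted p = 0.000221) and without 30-day sample 2 (adjusted p = 0.0146), and without the filter also for 90 against 60 days (0.49, adjusted p = 0.0152). Zhx2, known as a repressor of liver genes, had 16.3 ± 1.496, 16.02 ± 2.15 and 15.2 ± 0.476 CPM (SD, n = 3 each).

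**Figure D3:**
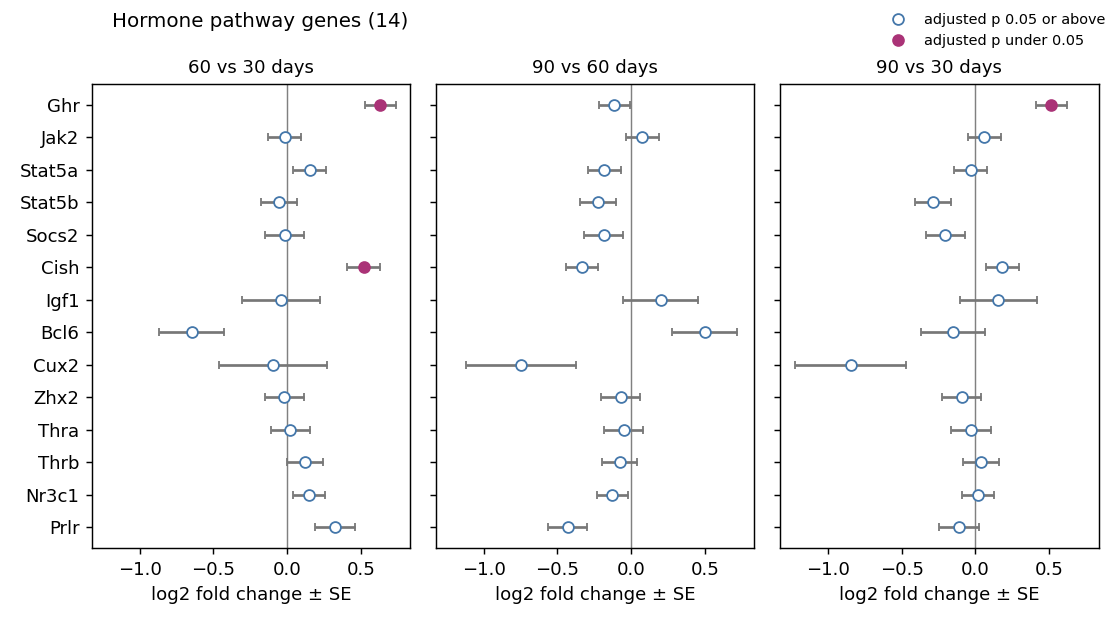
Points are log2 fold changes of the 14 hormone pathway genes with bars of 1 SE, in a panel for each comparison; filled points have an adjusted p under 0.05. Ghr and Cish are filled for 60 against 30 days, and Ghr alone for 90 against 30 days.

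Few other lipocalins were counted in these glands. Of 29 genes listed, 23 were found in the table, 14 had at least 1 count and 3 passed the filter. None of the 3 was called in any comparison. Of all genes, 1.56%, 0.256% and 3.57% were called for 60 against 30, 90 against 60 and 90 against 30 days. The median log2 difference of the 3 was 0.20, 0.11 and 0.04 in the same order of comparisons. Apod, a carrier of small lipids, had 60.5 ± 19.1, 57.9 ± 3.63 and 62.3 ± 9.12 CPM at the successive times (SD, n = 3 each). Lcn2, which binds bacterial iron carriers, had 2.55, 4.70 and 5.86 CPM in the 30-day group, 9.84, 9.95 and 6.59 CPM in the 60-day group and 4.89, 12.03 and 12.2 CPM in the 90-day group. The 90-day samples overlapped both other groups. Its log2 difference for 90 against 30 days was 1.13 ± 0.38 (SE; adjusted p = 0.163). It was called by DESeq2 (adjusted p = 0.0123), without a filter on low counts (1.14, adjusted p = 1.90e-05) and without 90-day sample 1 (1.45, adjusted p = 0.00428). For 60 against 30 days it was called without a filter (adjusted p = 0.000512) and without 90-day sample 1 (adjusted p = 0.0499), beside 0.320 in the fit to all samples. The odorant-binding lipocalins Obp1a and Obp2a had 4 and 8 counts in all 9 libraries.

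The libraries held 16541396 to 26065856 counts, and the 30-day libraries were the shallowest. Xist, transcribed from an inactive X chromosome, was present at 184 to 319 CPM in all 9 libraries, and 4 genes of the Y chromosome had 0 counts.

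Genes that mark liver were nearly absent. The 11 listed genes summed to between 1.95 and 4.25 CPM in the 30-day group, 1.47 and 2.46 CPM in the 60-day group and 1.71 and 2.63 CPM in the 90-day group. Albumin, Alb, had 2 counts in the 9 libraries together, and Apoa1 and Apoc3 had 0. The 2 liver genes that could be tested, Fgg and Ttr, were not called in any comparison. The shares of all genes called were 1.56%, 0.256% and 3.57%, in the order of comparisons above.

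Genes of the neighbouring sublingual and parotid glands were also measured, since these glands touch the submandibular gland. Muc19, the mucin of the sublingual gland, was between 0.0452 and 1.15 CPM in the 9 libraries, and Nkx2-3 had 2 counts in all. The 6 sublingual genes summed to between 147 and 681 CPM in the 30-day group, 461 and 1142 CPM in the 60-day group and 365 and 717 CPM in the 90-day group, and nearly all of this was Smgc, which the immature submandibular gland makes as well. The 6 parotid genes summed to between 27981 and 39049 CPM in the 30-day group, 25052 and 41641 CPM in the 60-day group and 19601 and 26806 CPM in the 90-day group, and nearly all of this was Car6, a secreted carbonic anhydrase. The parotid sum therefore gives the level of Car6 and not that of parotid RNA. Prb1, Prh1 and Prpmp5 did not exceed 0.753 CPM in any library. Of the same list, Bpifa2 reached 404 CPM in 90-day sample 2 and Amy1 17.8 CPM in 60-day sample 3. Among the 4 sublingual and 4 parotid genes tested, Amy1, salivary amylase, was called. It was higher by 1.08 ± 0.15 (log2, SE) at 60 than at 30 days and by 0.94 ± 0.15 at 90 than at 30 days, with adjusted p = 0.000954 and 0.00153. Of all genes, 1.14% were called higher for 60 against 30 days and 1.81% for 90 against 30 days. The median log2 difference for 90 against 30 days was 1.97 over the 4 sublingual genes, 1.68 over the 4 parotid genes and 0.01 over all genes. Amy1 has near-identical relatives, so its counts are uncertain. Other settings called further genes. Car6 was lower for 90 against 30 days with DESeq2 (adjusted p = 0.0351) and without the filter (adjusted p = 0.00194), and for 90 against 60 days under both (adjusted p = 0.0442 and 0.000461). For 90 against 30 days Dcpp3 was higher in the fit blocked on sample number (adjusted p = 0.0325) and without 90-day sample 1 (adjusted p = 0.00149), and Prb1 was higher without the filter (adjusted p = 0.0276).

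Within the groups, the genes of these glands did not follow Mup5 in 1 way. Bpifa2, a secreted protein abundant in parotid, had 14.1, 50.5 and 64.8 CPM in the 30-day group, 50.6, 45.2 and 215 CPM in the 60-day group and 72.2, 404 and 223 CPM in the 90-day group. Dcpp3, a secreted protein of sublingual demilune cells, had 0.213, 0.178 and 0.651 CPM in the 30-day group, 0.647, 1.31 and 1.92 CPM in the 60-day group and 0.303, 6.60 and 2.61 CPM in the 90-day group. Both were at their group's highest in 60-day sample 3 and 90-day sample 2, as Mup5 was, but not in 30-day sample 1, where Mup5 was highest in its group and Bpifa2 lowest. Smgc ran the other way, with 147, 679 and 421 CPM in the 30-day samples, 1131, 1139 and 451 CPM in the 60-day samples and 583, 351 and 708 CPM in the 90-day samples. It was lowest in its group in the 3 libraries where Mup5 was highest. The sum of the parotid list, which gives the level of Car6, was lowest in its group in 60-day sample 3 (25052 CPM) and 90-day sample 2 (19601 CPM). It was highest in 30-day sample 1 (39049 CPM). Muc19, with 1 to 23 counts per library, was lowest of the 90-day samples in sample 2 (0.412 CPM). In 60-day sample 3 Muc19 was at 0.209 CPM, near its group's highest of 0.216 CPM. Dcpp1 was highest in its group in 60-day sample 3 (7.51 CPM) and 90-day sample 2 (7.60 CPM) and lowest in 30-day sample 1 (0.0709 CPM). Prb1 was highest in 60-day sample 3 (0.542 CPM) and 90-day sample 3 (0.753 CPM). Of the 90-day samples Prpmp5 was highest in sample 2 (0.378 CPM). In 90-day sample 1 Bpifa2 and Dcpp3 were at 72.2 and 0.303 CPM, near or within the range of the 30-day samples. Mup5 was at 1956 CPM there, above every 60-day sample. Without 90-day sample 2 the Mup5 difference between 90 and 60 days was 0.89 ± 0.15 on the log2 scale (SE). The part of RNA from these glands in the Mup5 values was not tested.

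**Figure D4:**
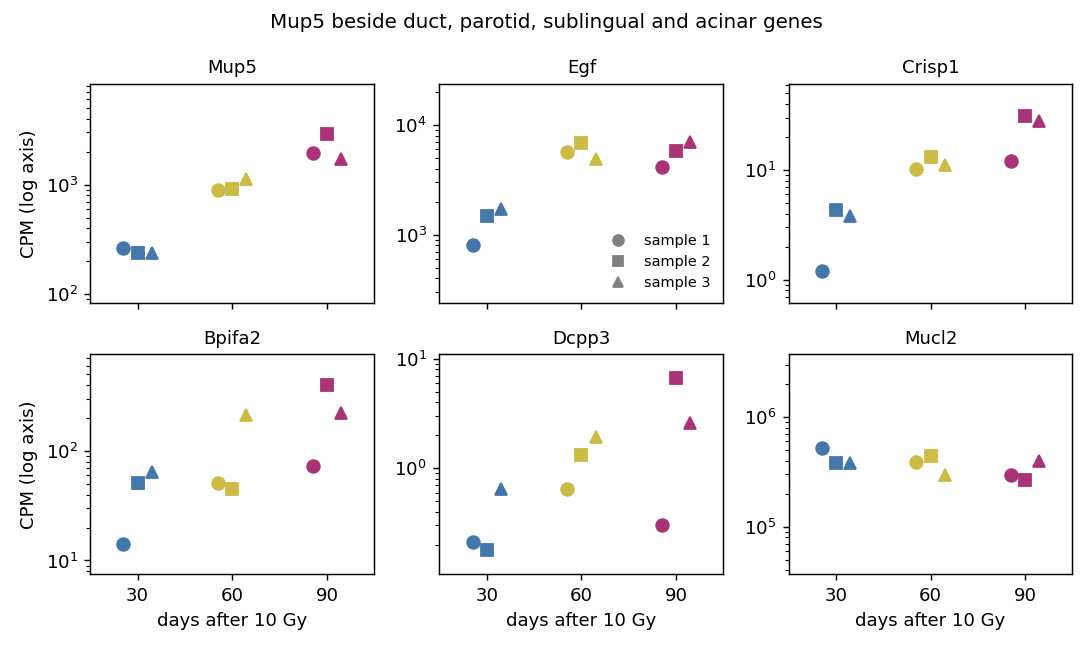
Panels give CPM on log axes against days after 10 Gy for Mup5, 2 granular duct genes (Egf, Crisp1), a parotid gene (Bpifa2), a sublingual gene (Dcpp3) and the acinar gene Mucl2; each point is a library and its shape the sample number. Mup5 groups do not overlap, while Bpifa2 runs from 72.2 to 404 CPM among the 90-day samples.

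Genes of the granular ducts, the androgen-responsive part of the rodent submandibular gland, were also higher at the later times. Of 19 listed, all tested, 14 rose and 0 fell from 30 to 60 days, 0 were called from 60 to 90 days, and 16 rose and 0 fell from 30 to 90 days. Of all genes, 1.14% were called higher from 30 to 60 days and 1.81% from 30 to 90 days. Either direction was called in 0.256% from 60 to 90 days. The list's median log2 difference was 1.86, 0.08 and 1.89, and that of all genes 0.00, 0.00 and 0.01. Many of the 19 are kallikreins with near-identical copies, so their single counts are uncertain. Egf, epidermal growth factor, had 811, 1465 and 1698 CPM in the 30-day group, 5721, 6815 and 4942 CPM in the 60-day group and 4116, 5859 and 6942 CPM in the 90-day group. Its 60-day and 90-day samples overlapped, unlike those of Mup5. For Klk1b4, of the same list, the groups lay in rising order without overlap. It had 287 to 594, 1052 to 1419 and 1444 to 1787 CPM at the successive times. Its step from 60 to 90 days was not called, with a log2 difference of 0.39 ± 0.22 (SE; adjusted p = 0.563). The log2 difference of Egf was 2.14 ± 0.26 for 60 against 30 days and 2.09 ± 0.26 for 90 against 30 days (SE; adjusted p = 0.00129 and 0.000770). Between 60 and 90 days the log2 difference of Egf was -0.05 ± 0.25 (SE; adjusted p = 0.970), beside 1.16 ± 0.17 for Mup5, and the difference between the genes was not tested. Crisp1, a cysteine-rich secretory protein, had 1.21, 4.28 and 3.79 CPM in the 30-day group, 10.2, 13.1 and 11.1 CPM in the 60-day group and 12.2, 30.8 and 28.1 CPM in the 90-day group. It rose from 30 to 90 days by 2.91 ± 0.48 (log2, SE; adjusted p = 0.0197). This was no longer called when 30-day sample 3, 60-day sample 3, 90-day sample 2 or 90-day sample 3 was left out (highest adjusted p = 0.0580). Between 60 and 90 days the log2 difference of Crisp1 was 1.05 ± 0.41 (SE, adjusted p = 0.435).

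Genes of the acini, the secretory end pieces, were measured beside these. Of 4 listed, 3 were tested, and Smr3a had 1 count in all. For 90 against 30 days 1 of 3 fell, the water channel gene Aqp5, with a difference of -0.57 ± 0.12 (log2, SE; adjusted p = 0.0113). For 90 against 60 days 1 of 3 fell, Bhlha15, a transcription factor of secretory cells, with a difference of -0.78 ± 0.12 (log2, SE; adjusted p = 0.00581). Of all genes, 1.77% were called lower for 90 against 30 days and 0.164% for 90 against 60 days. The calls of Aqp5 and Bhlha15 were both lost with library-size scaling and without 90-day sample 2, and that of Aqp5 also without 30-day sample 1. Mucl2, a mucin-like acinar product, had 427724 ± 79122, 377589 ± 74541 and 318684 ± 68043 CPM at the successive times (SD, n = 3 each), and its difference for 90 against 30 days was -0.42 ± 0.26 (log2, SE; adjusted p = 0.447). The part of a changed balance of duct and acinar cells in the Mup5 values was not tested.

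The genes whose levels followed Mup5 most closely were sought by Pearson's correlation of log2 CPM over the 9 libraries, among 13019 other genes with a mean of at least 1 CPM. The first 5 were Asrgl1 (0.974), App (0.970), Adcy2 (0.960), Lman2l (0.960) and Zfand6 (0.959). The 9 libraries share the order of the time points and the scaling, so any gene that climbs over time scores high, and the values are a description. After removal of the group means the correlations of these genes with Mup5 were 0.306, 0.378, 0.407, 0.674 and 0.374. On the same measure Crisp1 ranked 75th (0.896) and Egf 194th (0.851), with 0.0405 and -0.269 after removal of the group means.

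Adcy2, an adenylate cyclase that makes cyclic AMP, had 4.11, 3.45 and 5.45 CPM in the 30-day group, 7.99, 7.91 and 8.05 CPM in the 60-day group and 10.2, 12.7 and 10.1 CPM in the 90-day group. Asrgl1, an enzyme that splits asparagine and isoaspartyl bonds, had 13.4, 13.8 and 15.2 CPM in the 30-day group, 18.0, 19.5 and 20.1 CPM in the 60-day group and 23.3, 25.1 and 24.4 CPM in the 90-day group. In both genes the 3 groups did not overlap. The differences were smaller than that of Mup5, at 1.35 for Adcy2 and 0.78 for Asrgl1 on the log2 scale for 90 against 30 days, beside 3.16 for Mup5.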

How the data were processed

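RNA from submandibular gland sections of 9 samples was made into SMARTER mRNA-seq libraries, per the labels' protocols. The authors deposited raw read counts per Ensembl gene; fastp, STAR, featureCounts and the build mm10 are named in the submitters' processing notes, without versions or settings. Strand use and the treatment of reads that fit several places are not given in the sources used here. A further 3 columns belong to none of the listed samples and were left out. Symbols were found for 54409 of 54532 identifiers in GENCODE mouse release 21 (GRCm38), which also supplied positions and transcripts.

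Genes were filtered with filterByExpr (minimum count 10), which left 15224, scaled by TMM, and fitted over all 9 libraries with edgeR 4.0.16 (R 4.3.3) by the quasi-likelihood test with robust dispersion. Every adjusted p-value is from this test unless another is named, with Benjamini-Hochberg adjustment over all genes and a threshold of 0.05. The fit was tested on simulated data. Log2 CPM used a prior count of 2. Identities are from global alignments (Biopython 1.88). Shared stretches of 50, 75 and 100 bases are exact matches to a transcript of another gene or to its reverse complement. The fit was repeated with size factors of the DESeq2 type, with library size alone, without the filter, with DESeq2 1.42.0, with the sample number as a block, and without each sample in turn.

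The members, lists and alternatives were chosen with earlier results of these data known. The hormone list is the 14 genes described, and a further gene considered for it is not reported here. Named were the 5 members, other Mup genes with counts, called and most abundant genes of the lists, and the 5 genes most like Mup5 in pattern. Bcl6, Smgc, Muc19, Prb1, Prh1, Prpmp5, Klk1b4, Mucl2, Aqp5, Bhlha15, Zfp37, Slc46a2, Hsdl2, Slc31a1, Stat5a, Stat5b, Zhx2, Bpifa2, Dcpp1, Dcpp3, Obp1a and Obp2a, and the flanking genes, were named after their values were seen. Intervals and limits cover counting error only, since reads copied by PCR and not tagged per molecule are not independent.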

Additional observations from a re-analysis of the deposited data

How the results depend on the processing

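The log2 differences of Mup5 and of the Mup sum kept their direction under all 14 alternatives. For Mup5 they ran from 1.89 to 2.07 for 60 against 30 days, from 0.89 to 1.34 for 90 against 60 days and from 2.89 to 3.41 for 90 against 30 days. Leaving out single samples gave 1.89 to 2.06, 0.89 to 1.31 and 2.89 to 3.31 for Mup5 and the same ranges to 2 decimals for the Mup sum, lowest for the later comparisons without 90-day sample 2. Library-size scaling moved the median of all genes to 0.17 for 90 against 60 days and 0.24 for 90 against 30 days, beside 0.00 and 0.01 with TMM.

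Counts of called genes moved more. In the order 60 against 30, 90 against 60 and 90 against 30 days, 238, 39 and 544 genes were called. Without a filter on low counts the numbers were 459, 354 and 1045, and with DESeq2 369, 141 and 860. Library-size scaling gave 90 for the first, with 79 higher and 11 lower against 173 and 65 with TMM. It gave 19 higher and 9 lower against 14 and 25 for the second, and 406 higher and 34 lower against 275 and 269 for the third. Leaving out single samples gave 73 to 244, 16 to 103 and 184 to 703. Among the hormone pathway genes, library-size scaling called 1 for 60 against 30 days, no filter called 3 for 60 against 30 and 2 for 90 against 60 days, and leaving out single samples called 1 to 2, 0 and 0 to 1. Among lipocalins, 1 was called without a filter for 60 against 30 and for 90 against 30 days and 1 with DESeq2 for 90 against 30 days, and leaving out single samples called 0 to 1. The cause was not tested. The sample number as a block changed the number of called genes to 92 for 90 against 60 days. Over 9 pairs of same-numbered samples the correlation of deviations from the group means ran from -0.06 to 0.191, so the numbers were not taken to pair the samples.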
